A study of Mus musculus with 21 samples.

Results

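The comparison set 3T3-L1 adipocytes treated with dexamethasone (Dex) for 6 d against control adipocytes. Its members were chosen by the labels alone and are the 3 arrays labelled Dex_6D and the 3 labelled CTL, 6 of the 21 arrays of the series. 3T3-L1 is a mouse fibroblast line that becomes fat cells under an adipogenic hormone mixture, and the cells had been differentiated for 14 days. The Dex 6 d cells received 20 nM Dex, a synthetic glucocorticoid, for the last 6 d before harvest, and the control cells, labelled 0 h, were harvested without it. The labels state no vehicle and no handling of the medium over the 6 d, so any effect of these on the changes against control cannot be told apart from that of Dex. Both groups are 1 cell line in culture, so no other cells of fat tissue belong to the model. Cells under Dex for 2 h and 24 h, 3 arrays each, shared the fit, and the 24 h arrays served as a second comparison. The series was designed to follow transcripts as fat cells lose their response to insulin. The replicates are labelled biological, without stating separate cultures, so the p-values measure the spread between these arrays, which may be technical in part.

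Glucocorticoids cross the cell membrane and bind the glucocorticoid receptor, the product of Nr3c1, which leaves its chaperones, enters the nucleus and binds DNA at response elements. It switches on genes such as Fkbp5, Per1 and Tsc22d3, and it lowers many inflammatory genes. In fat cells, prolonged glucocorticoid exposure is known to reduce insulin-stimulated glucose uptake and to change the balance between storing and releasing triglyceride. The cell's sterol supply is controlled by SREBP2, the product of Srebf2, a factor held in the endoplasmic reticulum by INSIG proteins when sterols are plentiful, which otherwise raises the genes of cholesterol synthesis together.

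Levels are log2 expression values, so a difference of 1 is 2-fold. Of 18194 genes with a probe set annotated to that gene alone, 11824 were tested. These had at least 3 of the 12 arrays of the fit above 5.33, the median of all values. A change is the Dex 6 d mean minus the control mean ± its standard error (SE). Where the mean of either group lay below 5.33, the change is called a lower limit, since such levels may be array background. Calls rest on two-sided p-values from limma with Benjamini-Hochberg adjustment over all tested genes, at a threshold of 0.05. Dex_6D replicate 2 stood apart in 1 measure of RNA quality, the difference between 3′ and 5′ control probe sets, which was 0.112, 0.777 and 0.021 on the 3 Dex 6 d arrays, against 0.112, 0.179 and 0.283 on the control arrays. Its mean correlation with its group mates was 0.989, against a range of 0.987 to 0.993 over the other arrays of both groups. The 2 groups hold 3 arrays each, which limits the precision.

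The cells carried adipocyte transcripts in both groups. The mean level over 18 adipocyte markers was 11.07 to 11.20 on the Dex 6 d arrays, against 11.77 to 11.78 on the control arrays, and 8 of the 17 markers tested fell while 0 rose by limma, Car3 the furthest. Fabp4, which carries fatty acids in the cytosol, was at 14.94 ± 0.06 in Dex 6 d cells and 14.93 ± 0.01 in control cells (SD, n = 3 each), and its change of 0.01 ± 0.04 did not pass (adjusted p = 0.839). That probe set lies close to the top of the array's range, and its other bright probe sets changed by up to 0.58. The change of Pparg, the master factor of fat cells, was -0.21 ± 0.08 with adjusted p = 0.0601, and that of Cebpa was -0.12 ± 0.19 with adjusted p = 0.698, neither called by limma. Adipoq, which encodes the hormone adiponectin, fell by 0.19 ± 0.04 (adjusted p = 0.00299). Its means of 14.69 in Dex 6 d cells and 14.88 in control cells were also close to the top of the array's range. Of 17 preadipocyte and fibroblast markers tested, 3 rose and 7 fell. The mean level over 20 such markers, including those too dim to test, was 8.28 to 8.41 in Dex 6 d cells, against 8.61 to 8.84 in control cells. The mean levels of markers of other cell types were low, though single members were not. Macrophage markers averaged 4.90 to 5.05 in Dex 6 d cells, against 4.81 to 4.96 in control cells, with Adgre1, Ptprc and Itgam at or below 4.64 in both groups. Of the 3 tested, Cd14, an endotoxin co-receptor, rose by 0.82 ± 0.11 (adjusted p = 6.29e-05), with means of 7.42 in Dex 6 d cells and 6.60 in control cells, and Csf1r was at 6.46 in Dex 6 d cells and 6.45 in control cells. Endothelial markers averaged 4.66 to 4.74 in Dex 6 d cells, against 4.71 to 4.92 in control cells, with Pecam1 and Cdh5 at or below 4.67 and Kdr at 6.65 in both groups. Skeletal muscle markers averaged 5.00 to 5.12 in Dex 6 d cells, against 5.43 to 5.55 in control cells, with means of 5.57 in Dex 6 d cells and 7.82 in control cells for Mb, myoglobin, which fell by 2.26 ± 0.19 (adjusted p = 5.61e-07). Epithelial markers averaged 4.99 to 5.43 in Dex 6 d cells, against 5.37 to 5.38 in control cells, and Epcam fell, with means of 6.59 in Dex 6 d cells and 7.12 in control cells (adjusted p = 0.0412). In such bulk samples, fewer cells of a type and less RNA per cell cannot be told apart, and the part of these marker levels in the results was not tested.

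After 6 d of Dex, 3495 genes were called against control, which is 29.6% of the genes tested. The 1567 genes that rose were 13.3%, and the 1928 that fell were 16.3%. The counts of the gene lists below are to be read beside these shares, and several lie near them. A change of at least 2-fold was reached by 247 genes that rose and 383 that fell, while the median change over all genes tested was -0.02. The Dex 6 d and control arrays did not overlap for 4471 genes (37.8%), and 3319 of the called genes were among them, against 176 called genes with overlapping arrays. Without Dex_6D replicate 2, 3295 genes were called, 1345 higher and 1950 lower. Of the 3495 calls, 2896 (82.9%) were kept, and 0 changed sign. When the arrays of all 7 groups shared 1 spread, 1007 of the 11824 genes were called, 395 higher and 612 lower. List counts from this fit of all 21 arrays belong beside these smaller numbers, not beside the shares of the main fit. With TNF_6D replicate 2 left out of that fit, 2902 genes were called.

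**Figure D1:**
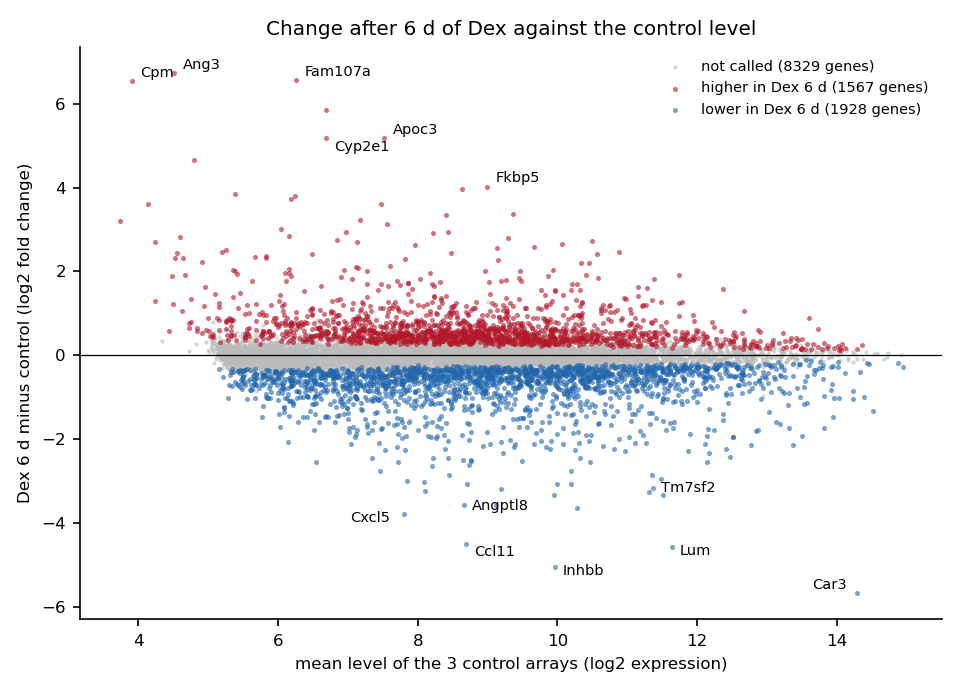
Each point is 1 of the 11824 genes tested, with the mean level of the 3 control arrays on the x axis (log2 expression) and the Dex 6 d minus control change on the y axis (log2 fold change); red genes rose, blue genes fell and grey genes were not called by limma. The largest rises began from low control levels, as in Cpm and Ang3, whereas Car3 and Lum fell from high ones.

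Of the 15 largest rises, the highest in measured size was that of Ang3, followed by Fam107a and Cpm. Fam107a, an actin-binding protein known as a stress and glucocorticoid response gene, was at 12.77, 12.75 and 12.97 on the Dex 6 d arrays, against 6.19, 6.74 and 5.84 on the control arrays. The lowest Dex 6 d array lay far above the highest control array, a change of 6.57 ± 0.17 or 95.1-fold (adjusted p = 6.07e-12). Cpm, a membrane-bound carboxypeptidase that trims basic residues from peptides, was at 10.56, 10.78 and 10.0 in Dex 6 d cells, against 3.80, 4.09 and 3.82 in control cells. Its control level was at the background, so its change of 6.54 ± 0.28 (adjusted p = 6.19e-10) is a lower limit. Apoc3, a lipoprotein component that inhibits lipoprotein lipase, was at 12.82, 12.53 and 12.76 in Dex 6 d cells, against 7.66, 7.77 and 7.14 in control cells, a change of 5.18 ± 0.20 (adjusted p = 2.13e-10). Cyp2e1, a cytochrome P450 that oxidises ethanol and other small molecules, was at 11.87, 11.70 and 12.02 in Dex 6 d cells, against 6.36, 7.01 and 6.69 in control cells, a change of 5.17 ± 0.16 (adjusted p = 2.21e-11). In both, every Dex 6 d array was above every control array.

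Among the 15 highest genes were 3 secreted ribonucleases of the angiogenin and eosinophil-associated families, whose probe sets may not tell near-identical copies apart. Ang3 was at 11.34, 11.68 and 10.73 in Dex 6 d cells, against 4.58, 4.69 and 4.28 in control cells. The control arrays were near background, so the change of 6.73 ± 0.23 (adjusted p = 5.96e-11) is a lower limit. Ear3 changed by 5.85 ± 0.16 (adjusted p = 6.25e-12), and Ang4 by 3.61 ± 0.23 (adjusted p = 4.9e-08), which is again a lower limit. The symbols Ang3 and Ear3 are those of the platform annotation. Besides Fkbp5, described with the glucocorticoid targets, the remaining members of the 15 included Ifi207, of the interferon-inducible PYHIN family, with 4.65 ± 0.19, a lower limit, and Ccl6, a chemokine, with 3.97 ± 0.21. Retreg1, a receptor for autophagy of the endoplasmic reticulum, rose by 3.84 ± 0.19, and Aldh1a1, which makes retinoic acid, rose by 3.80 ± 0.22. Ctla2a, an inhibitor of cysteine proteases, rose by 3.72 ± 0.25, and Depp1, an autophagy regulator controlled by FoxO factors, rose by 3.61 ± 0.15. Clca3a1, of the chloride channel regulator family, rose by 3.38 ± 0.12. The largest adjusted p among all 15 was 6.82e-08, for Ctla2a.

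The promoters of Fam107a and Retreg1 are shown because, of the 15 highest genes, they had the largest changes among those whose window held the core letters of a glucocorticoid response element. The letters searched were ACANNNTGT, which read the same on both strands. Windows run from 250 bases before to 50 bases after a RefSeq start, in build GRCm38.p6, and capitals mark the match. The Fam107a window is chr14:8309730-8310029 on the minus strand, 1 of 3 windows of the gene, with the match beginning at -116 from the start.
Fam107a: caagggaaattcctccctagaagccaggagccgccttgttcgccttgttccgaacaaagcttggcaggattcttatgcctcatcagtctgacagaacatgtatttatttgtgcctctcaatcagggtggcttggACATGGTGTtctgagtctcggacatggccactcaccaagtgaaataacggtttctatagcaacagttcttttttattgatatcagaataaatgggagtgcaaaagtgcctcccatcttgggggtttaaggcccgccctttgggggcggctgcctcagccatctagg
The Retreg1 window is chr15:25940452-25940751 on the plus strand, 1 of 4 windows of the gene, with the match at -113.
Retreg1: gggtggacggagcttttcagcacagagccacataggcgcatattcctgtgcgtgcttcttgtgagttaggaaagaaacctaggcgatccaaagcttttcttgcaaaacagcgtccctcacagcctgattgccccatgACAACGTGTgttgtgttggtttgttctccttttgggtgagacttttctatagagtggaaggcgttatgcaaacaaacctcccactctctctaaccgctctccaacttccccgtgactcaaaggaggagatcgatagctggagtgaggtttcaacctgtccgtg
Of the 12 highest genes that had a window, 3 held these letters (25%), the other one being Ctla2a, against 7.90% of 27025 genes. A match to letters is not evidence of a site, and genes with several windows had several chances to match.

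Of the 15 largest falls, the largest were those of Car3, Inhbb and Lum. Car3, carbonic anhydrase III, one of the most abundant proteins of the fat cell, was at 8.12, 8.42 and 9.36 in Dex 6 d cells, against 14.18, 14.24 and 14.49 in control cells. The highest Dex 6 d array lay well below the lowest control array, and the fall was 50.9-fold, a change of -5.67 ± 0.26 (adjusted p = 1.4e-09). Its 3 bright probe sets changed by -6.45 to -3.03. Inhbb, the beta B subunit of inhibin B and activin B, was at 4.67, 5.16 and 4.89 in Dex 6 d cells, against 9.87, 9.80 and 10.19 in control cells. It had reached background, so its change of -5.05 ± 0.14 (adjusted p = 6.25e-12) is a lower limit in size, and a dimmer probe set gave -0.84. Lum, lumican, a small proteoglycan that spaces collagen fibrils, was at 6.36, 7.10 and 7.76 in Dex 6 d cells, against 11.39, 11.38 and 12.16 in control cells, a change of -4.57 ± 0.36 (adjusted p = 2.79e-07). Ccl11, the chemokine eotaxin, was at 4.65, 3.92 and 4.04 in Dex 6 d cells, against 8.61, 8.49 and 8.97 in control cells, a change of -4.49 ± 0.24 (adjusted p = 7.88e-09) that is also a limit. No Dex 6 d array of these genes overlapped the control arrays.

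Angptl8, an insulin-induced regulator of lipoprotein lipase, was at 5.25, 4.98 and 5.01 in Dex 6 d cells, against 8.49, 9.09 and 8.39 in control cells, so it had fallen to background. Ffar4, a receptor for long-chain fatty acids, was at 5.90, 6.03 and 6.06 in Dex 6 d cells, against 9.10, 9.59 and 8.88 in control cells. Both groups stood clearly apart in each, with changes of -3.58 ± 0.18 for Angptl8 (adjusted p = 3.96e-09), a limit, and -3.19 ± 0.25 for Ffar4 (adjusted p = 3.56e-07). Cox7a1, a muscle and fat form of a cytochrome oxidase subunit, fell by 3.27 ± 0.18, and Ces1f, a carboxylesterase, fell by 3.32 ± 0.16. Pmepa1, an inhibitor of TGF-beta signalling that is itself induced by TGF-beta, fell by 3.63 ± 0.15, and Tgfbi, a TGF-beta-induced matrix protein, fell by 3.34 ± 0.19. The other genes of the 15 lowest were Cxcl5, a neutrophil chemokine (-3.78 ± 0.17), Col8a1, a collagen chain (-3.57 ± 0.34), Sema3g, a secreted semaphorin (-3.24 ± 0.37), Sertad4 (-3.08 ± 0.21) and Tm7sf2 of cholesterol synthesis, described below with its pathway. Those of Cxcl5 and Sema3g are limits. The largest adjusted p of the 15 was 1.36e-05, for Sema3g.

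**Figure D2:**
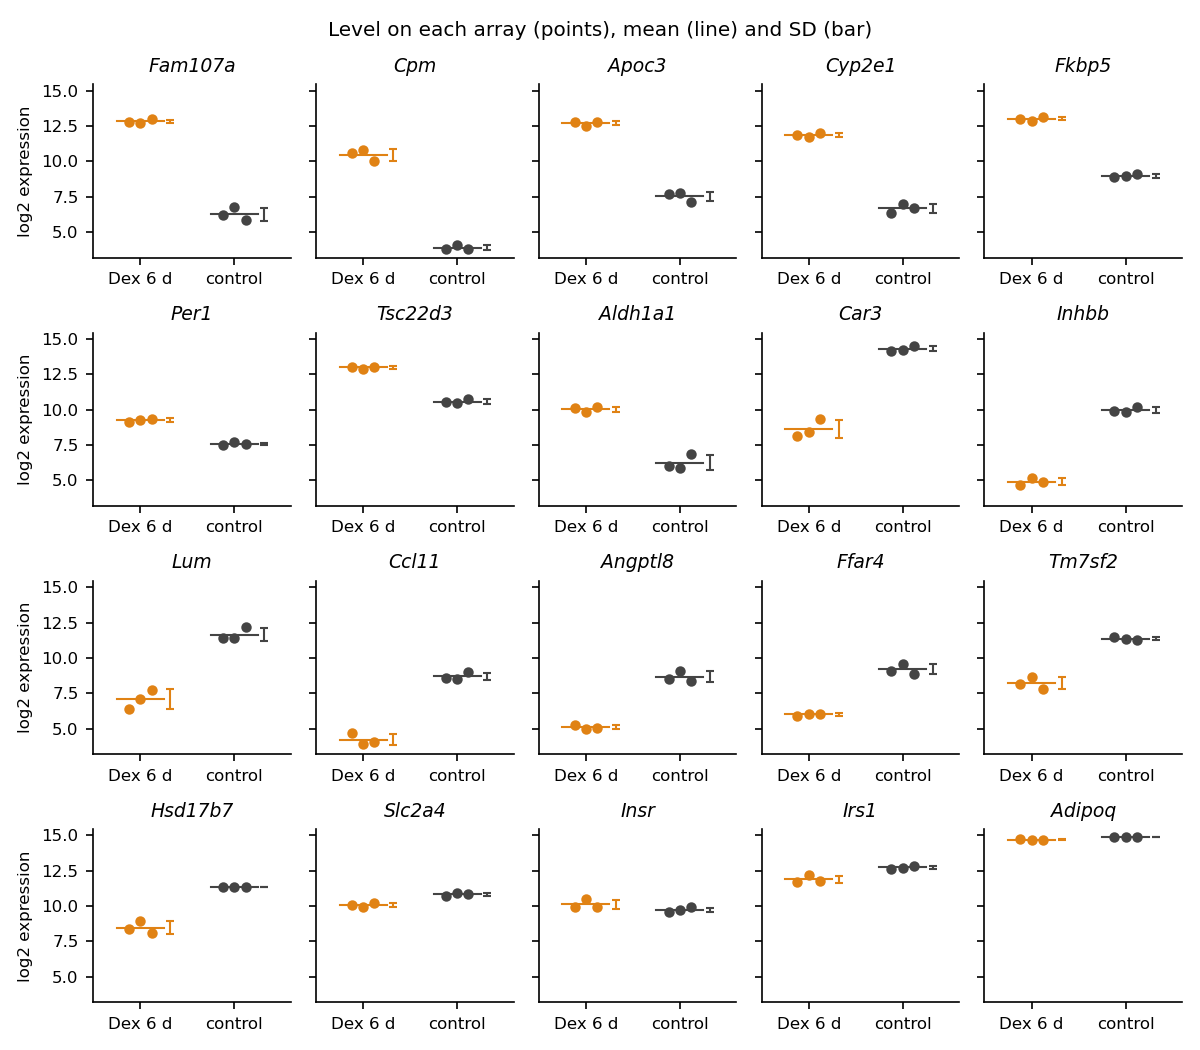
Log2 expression on each of the 3 Dex 6 d arrays (orange, left) and the 3 control arrays (dark, right) for 20 genes, with the mean as a line and the SD as a bar. The groups do not overlap in any of the 20 genes, but the gap of Insr is small and it was not called (adjusted p = 0.0521).

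Known glucocorticoid targets were mostly higher. Of 28 tested, 21 rose and 2 fell, with a median change of 1.09. Fkbp5, a co-chaperone that lowers the receptor's affinity for hormone, was at 13.03, 12.89 and 13.12 in Dex 6 d cells, against 8.86, 8.97 and 9.12 in control cells, a change of 4.02 ± 0.08 (adjusted p = 4.91e-13). Tsc22d3, also called GILZ, was at 13.05, 12.89 and 13.01 in Dex 6 d cells, against 10.51, 10.46 and 10.74 in control cells. All Dex 6 d arrays were higher, by 2.41 ± 0.08 (adjusted p = 2.52e-11), though its 4 bright probe sets ranged from 0.21 to 2.58. Errfi1, an inhibitor of EGF receptor signalling, rose by 3.35 ± 0.08, Cebpd, a factor of early adipogenesis, by 2.95 ± 0.08 (its other bright probe set gave 0.48), Mt2, a metallothionein, by 2.73 ± 0.10, Zbtb16, a transcriptional repressor, by 2.63 ± 0.16, and Sgk1, a kinase that acts on ion channels, by 2.56 ± 0.10. The 2 targets that fell were Ddit4, an inhibitor of mTOR, with -0.91 ± 0.10 (adjusted p = 1.26e-05), and Tgm2, a transglutaminase, with -1.15 ± 0.16 (adjusted p = 6.77e-05), whose other bright probe sets reached -0.13. Klf15, Dusp1, Rgs2, Angptl4 and Tat were not called, with changes of 0.03 to 0.44.

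The receptor itself and the enzyme that feeds it with hormone fell. Nr3c1 was at 10.46, 10.60 and 10.34 in Dex 6 d cells, against 11.29, 11.31 and 11.46 in control cells, with no overlap and a change of -0.89 ± 0.09 (adjusted p = 5.33e-06). Hsd11b1, which regenerates active corticosterone inside fat cells, was at 11.14, 11.07 and 11.01 in Dex 6 d cells, against 12.99, 12.98 and 12.62 in control cells, a change of -1.79 ± 0.10 (adjusted p = 1.04e-08). These were the 2 of 10 receptor machinery genes that fell. The 4 that rose were the coactivators Ncoa1, by 0.64 ± 0.12, and Ncoa3, by 0.61 ± 0.16, and the chaperones Hsp90aa1, by 0.38 ± 0.09, and Hspa8, by 0.23 ± 0.08. In the fit of all 21 arrays, 0 of the 10 rose and 1 fell.

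Insulin receptor signalling genes moved in both directions. Of 29 tested, 4 rose and 5 fell, shares near those of all genes, and the median change was 0.00. Irs1, a docking protein of the insulin receptor, was at 11.71, 12.18 and 11.81 in Dex 6 d cells, against 12.66, 12.73 and 12.85 in control cells. Every Dex 6 d array was lower, and the change was -0.85 ± 0.11 (adjusted p = 4.79e-05). Pik3r1, the regulatory subunit of phosphoinositide 3-kinase, was at 11.55, 11.80 and 11.47 in Dex 6 d cells, against 10.43, 10.26 and 10.37 in control cells, a change of 1.25 ± 0.12 (adjusted p = 1.61e-06). Insr, the receptor, changed by 0.39 ± 0.14 and Irs2 by 0.32 ± 0.32, neither called (adjusted p = 0.0521 and 0.509). Akt2, the kinase that carries the signal to glucose transport, changed by -0.53 ± 0.10 (adjusted p = 0.000705), but its 3 bright probe sets ran from -0.66 to 0.12. Also higher were Socs2, a suppressor of cytokine signalling (1.13 ± 0.12), Igf1r, the IGF-1 receptor (1.10 ± 0.14), and Trib3, a pseudokinase that binds AKT (0.95 ± 0.23). Also lower were Grb14, an inhibitor of the insulin receptor (-1.24 ± 0.19), Pik3r3 (-1.01 ± 0.12) and Pik3cb (-0.58 ± 0.18, a limit). In the fit of all 21 arrays, 3 of the 29 rose and 2 fell.

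Of 19 genes of glucose uptake, 10 fell and 4 rose, with a median of -0.17. Slc2a4, which encodes the insulin-responsive transporter GLUT4, was at 10.11, 9.93 and 10.21 in Dex 6 d cells, against 10.74, 10.96 and 10.84 in control cells. The groups did not overlap, and the change was -0.76 ± 0.10 or 1.7-fold lower (adjusted p = 4.97e-05). Slc2a1, which encodes the basal transporter GLUT1, was at 9.61, 10.29 and 9.40 in Dex 6 d cells, against 10.94, 11.24 and 10.91 in control cells, a change of -1.26 ± 0.23 (adjusted p = 0.000933). Tbc1d4, the AKT substrate that restrains GLUT4 vesicles, rose by 1.01 ± 0.22 (adjusted p = 0.00275), while its relative Tbc1d1 changed by -0.69 ± 0.18 (adjusted p = 0.00897). Fitted with all 21 arrays, 4 of the 19 fell and 1 rose.

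The glycolytic enzymes were lower as a group: of 13 tested, 11 fell and 0 rose, with a median of -0.77. Ldha, lactate dehydrogenase A, was at 12.46, 12.27 and 12.59 in Dex 6 d cells, against 13.57, 13.61 and 13.52 in control cells, a change of -1.13 ± 0.08 (adjusted p = 1.81e-07). Pgk1, phosphoglycerate kinase, was at 13.0, 13.0 and 13.06 in Dex 6 d cells, against 14.04, 14.07 and 13.99 in control cells, a change of -1.01 ± 0.07 (adjusted p = 5.87e-08). In each the 3 arrays of a group lay close together and the groups were apart. Pfkl, the liver-type phosphofructokinase, changed by -1.86 ± 0.26 (adjusted p = 9.19e-05), and Pfkfb4, which makes the activator of phosphofructokinase, by -0.94 ± 0.11 (adjusted p = 1.29e-05). Pfkp and Slc16a1 were not called, and with all 21 arrays in the fit 5 of the 13 fell.

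Pyruvate handling was mixed, with 5 of 16 genes higher and 5 lower. Pck1, the enzyme of glycerol synthesis from pyruvate in fat cells, was at 9.61, 9.62 and 9.56 in Dex 6 d cells, against 11.92, 12.14 and 12.37 in control cells, a change of -2.55 ± 0.11 (adjusted p = 4.87e-10). Pdk4, a kinase that shuts off pyruvate dehydrogenase, was at 8.48, 8.56 and 8.41 in Dex 6 d cells, against 7.01, 7.31 and 7.60 in control cells, a change of 1.18 ± 0.13 (adjusted p = 9.42e-06). Its relative Pdk1 moved the other way, by -1.37 ± 0.19 (adjusted p = 9.5e-05), as did the malic enzyme Me1, by -1.16 ± 0.08 (adjusted p = 6.27e-08). Of 16 glycogen genes, 3 rose and 4 fell, beside 13.3% and 16.3% of all genes tested. Ppp1r3b, a subunit that targets a phosphatase to glycogen, changed by -1.77 ± 0.18 (adjusted p = 4.67e-06), and Phka2, a phosphorylase kinase subunit, by 1.36 ± 0.10 (adjusted p = 9.97e-08), with bright probe sets between 0.26 and 1.52. When all 21 arrays were fitted, 1 pyruvate gene rose and 3 fell, and so did the same numbers of glycogen genes.

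Fatty acid synthesis was lower: 14 of 20 genes fell and 2 rose, with a median of -0.60. The largest falls were in desaturation, elongation and acetate activation. Fads2, a fatty acid desaturase, was at 9.0, 9.30 and 8.84 in Dex 6 d cells, against 11.08, 11.08 and 11.21 in control cells, a change of -2.08 ± 0.11 (adjusted p = 5.57e-09). Acss2, which activates acetate in the cytosol, changed by -1.94 ± 0.13 and Elovl6, which elongates palmitate, by -1.93 ± 0.18 (adjusted p = 9.11e-08 and 2.22e-06). Fasn, fatty acid synthase, was at 11.86, 12.23 and 12.04 in Dex 6 d cells, against 12.45, 12.62 and 12.55 in control cells, a smaller change of -0.49 ± 0.08 (adjusted p = 0.000484). Scd1, the main desaturase of fat cells, changed by -0.27 ± 0.04 (adjusted p = 9.36e-05), at levels of 14.68 ± 0.0 in Dex 6 d cells and 14.95 ± 0.02 in control cells (SD, n = 3 each), close to the top of the array's range. Srebf1, the transcription factor of lipid synthesis genes, rose by 0.61 ± 0.09 (adjusted p = 0.000179), and the other member that rose was Pgd, of the pentose phosphate pathway, by 0.29 ± 0.06, with bright probe sets between -0.02 and 0.29. In the fit of all 21 arrays, 5 of the 20 fell and 0 rose.

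Of 14 triglyceride assembly genes, 7 fell and 3 rose. Agpat2, an acyltransferase needed for fat storage, was at 12.60, 11.97 and 12.55 in Dex 6 d cells, against 13.57, 13.51 and 13.52 in control cells, a change of -1.16 ± 0.12 (adjusted p = 4.67e-06). Gpat3, the acyltransferase of the first step, changed by -1.49 ± 0.09 (adjusted p = 2.12e-08). Lpin3, a phosphatidate phosphatase, rose by 1.21 ± 0.14 (adjusted p = 1.34e-05), and its relative Lpin1 by 0.72 ± 0.09. Of 13 fatty acid uptake genes, 1 rose and 3 fell, beside 13.3% and 16.3% of all genes tested, or 5 fell without Dex_6D replicate 2. Lpl, lipoprotein lipase, changed by -0.09 ± 0.04, and Cd36, a fatty acid transporter, by -0.09 ± 0.10, neither called (adjusted p = 0.138 and 0.548). The means of Lpl were 14.59 in Dex 6 d cells and 14.68 in control cells, close to the top of the array's range. Its other bright probe set changed by -0.2. Acsl3, an acyl-CoA synthetase, fell by 1.91 ± 0.14 (adjusted p = 1.91e-07).

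Of 21 lipolysis genes tested, 13 fell and 2 rose, with a median of -0.54. Pnpla2, adipose triglyceride lipase, was at 12.49, 12.44 and 12.47 in Dex 6 d cells, against 11.26, 11.30 and 11.26 in control cells. The groups were far apart relative to their spread, a change of 1.19 ± 0.07 or 2.29-fold (adjusted p = 1.23e-08). The second that rose was Abhd5, its coactivator, by 0.71 ± 0.08 (adjusted p = 1.02e-05). G0s2, the inhibitor of the same lipase, was at 11.32, 11.34 and 11.02 in Dex 6 d cells, against 13.42, 13.54 and 13.15 in control cells, a change of -2.14 ± 0.14 (adjusted p = 7.43e-08). Lipe, hormone-sensitive lipase, changed by -0.30 ± 0.10 (adjusted p = 0.0453) with overlapping arrays, and without Dex_6D replicate 2 it changed by -0.20 and was not called (adjusted p = 0.163). Mgll, monoglyceride lipase, changed by -2.23 ± 0.12 (adjusted p = 7.96e-09), with 4 bright probe sets between -2.36 and 0.0. Some receptors that restrain lipolysis were lower, with -2.50 ± 0.20 for Hcar2, the niacin receptor, -2.0 ± 0.17 for Ffar2, a receptor for short-chain fatty acids, and -1.90 ± 0.11 for Hcar1, the lactate receptor. Their adjusted p-values were 3.25e-07, 7.33e-07 and 1.19e-08 by limma. Ptger3 was too dim to test and Adora1 had no probe set annotated to it alone, so such receptors were not covered in full. With all 21 arrays in the fit, 1 of the 21 rose and 9 fell.

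Every one of the 17 cholesterol synthesis genes tested fell, with a median of -1.76 and a range of -3.17 to -0.70. In the fit of all 21 arrays 15 of the 17 fell, and without Dex_6D replicate 2 all 17 did. Tm7sf2, a sterol reductase of the late pathway, was at 8.15, 8.64 and 7.79 in Dex 6 d cells, against 11.49, 11.35 and 11.26 in control cells, a change of -3.17 ± 0.17 (adjusted p = 8.89e-09). Hsd17b7, a ketosteroid reductase of the late pathway, was at 8.41, 8.95 and 8.08 in Dex 6 d cells, against 11.33, 11.37 and 11.34 in control cells, a change of -2.86 ± 0.16 (adjusted p = 1.14e-08). In both genes the 3 control arrays lay within a narrow range and every Dex 6 d array was lower by more than 2 on the log2 scale. Mvd, which makes isopentenyl diphosphate from mevalonate diphosphate, was at 7.73, 7.71 and 7.55 in Dex 6 d cells, against 9.81, 9.93 and 9.79 in control cells, a change of -2.18 ± 0.11 (adjusted p = 3.91e-09). Sqle, squalene epoxidase, a control point of the pathway, changed by -2.12 ± 0.17 (adjusted p = 3.25e-07). Hmgcs1, the synthase at the head of the pathway, changed by -1.35 ± 0.13 (adjusted p = 1.93e-06), and the smallest change was that of Ebp, -0.70 ± 0.09 (adjusted p = 4.9e-05).

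The promoters of 4 of these genes are shown because they held TCACNNCAC, the core letters of a sterol response element, on either strand. Capitals mark the match, and the windows are RefSeq starts in build GRCm38.p6.
The Hsd17b7 window is chr1:169969156-169969455 on the minus strand, with the match beginning at -117 from the start.
Hsd17b7: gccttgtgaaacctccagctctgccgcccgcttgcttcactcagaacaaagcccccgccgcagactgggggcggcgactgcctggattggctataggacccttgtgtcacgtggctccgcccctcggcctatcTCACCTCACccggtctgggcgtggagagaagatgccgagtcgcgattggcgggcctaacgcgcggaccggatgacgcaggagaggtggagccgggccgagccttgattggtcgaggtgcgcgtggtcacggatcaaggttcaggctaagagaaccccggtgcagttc
The Dhcr7 window is chr7:143823149-143823448 on the plus strand, 1 of 3 windows of the gene, with the match at -130.
Dhcr7: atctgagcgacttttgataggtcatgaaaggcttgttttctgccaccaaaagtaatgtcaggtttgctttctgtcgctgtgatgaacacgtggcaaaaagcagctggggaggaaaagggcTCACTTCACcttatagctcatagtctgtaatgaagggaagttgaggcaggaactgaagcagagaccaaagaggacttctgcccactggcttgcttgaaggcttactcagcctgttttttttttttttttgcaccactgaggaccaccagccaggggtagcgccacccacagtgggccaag
The Msmo1 window is chr8:64733529-64733828 on the minus strand, with the match at -92.
Msmo1: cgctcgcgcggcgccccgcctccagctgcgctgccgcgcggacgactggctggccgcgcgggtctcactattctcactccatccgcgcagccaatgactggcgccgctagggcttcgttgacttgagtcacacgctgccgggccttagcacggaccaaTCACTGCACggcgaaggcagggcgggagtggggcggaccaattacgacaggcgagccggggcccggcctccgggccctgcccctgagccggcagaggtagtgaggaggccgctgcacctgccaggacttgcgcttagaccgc
The Hmgcs1 window is chr13:119690101-119690400 on the plus strand, with the match at -137.
Hmgcs1: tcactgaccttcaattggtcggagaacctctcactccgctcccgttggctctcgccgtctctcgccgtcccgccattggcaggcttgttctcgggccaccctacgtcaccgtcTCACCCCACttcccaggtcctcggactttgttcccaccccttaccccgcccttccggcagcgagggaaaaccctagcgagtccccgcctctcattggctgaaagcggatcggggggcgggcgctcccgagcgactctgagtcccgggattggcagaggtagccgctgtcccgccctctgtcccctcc
Of the 14 genes of the list that had a window, these 4 (28.6%) held the letters, against 4.37% of 27025 genes. Tm7sf2, with a larger fall than all 4, and Mvd, with a larger fall than 3 of the 4, held none in their window. The letters CCAAT, the core of NF-Y sites, searched on both strands after the values were seen, were in all 14, against 41.1% of genes. Dhcr7, the last reductase of the pathway, changed by -1.83 ± 0.16, and Msmo1, a sterol methyl oxidase, by -1.60 ± 0.11 (adjusted p = 1.21e-06 and 5.87e-08).

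**Figure D3:**
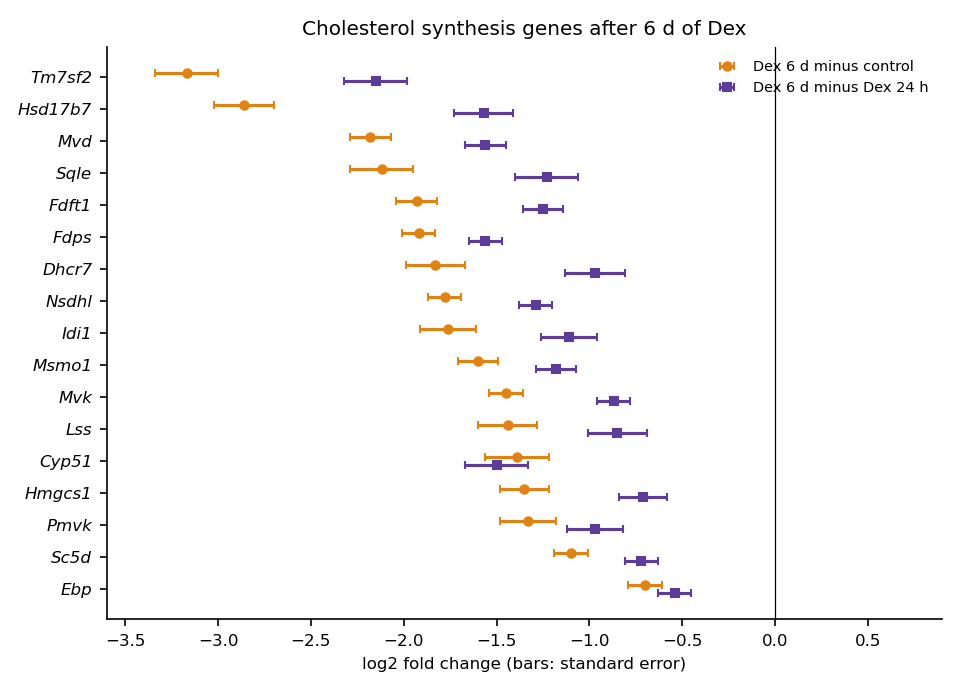
Log2 fold changes of the 17 cholesterol synthesis genes after 6 d of Dex, against control (orange circles) and against Dex 24 h (purple squares), with standard errors as bars and genes ordered by the change against control. All 34 points lie below 0, from -3.17 for Tm7sf2 against control to -0.54 for Ebp against Dex 24 h.

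Of 11 regulators of the sterol pathway tested, 3 fell and 1 rose. Stard4, a sterol carrier, changed by -1.86 ± 0.20 (adjusted p = 8.98e-06), and Insig1, which retains SREBP factors and is itself induced by them, was at 11.07, 11.32 and 10.51 in Dex 6 d cells, against 12.33, 12.40 and 12.41 in control cells. That is a change of -1.41 ± 0.15 (adjusted p = 7.08e-06). Srebf2 changed by -0.51 ± 0.14 (adjusted p = 0.0123), and Mbtps2, a protease that releases SREBP, rose by 0.34 ± 0.09 (adjusted p = 0.0133). Of 10 cholesterol efflux genes, 4 fell and 0 rose. These were Pltp, phospholipid transfer protein (-2.04 ± 0.13), Apoe, apolipoprotein E (-1.96 ± 0.33, a limit), Mylip, a ligase that degrades the LDL receptor (-1.37 ± 0.10), and Apoc1 (-0.76 ± 0.17), while the transporters Abca1 and Abcg1 were not called.

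**Figure D4:**
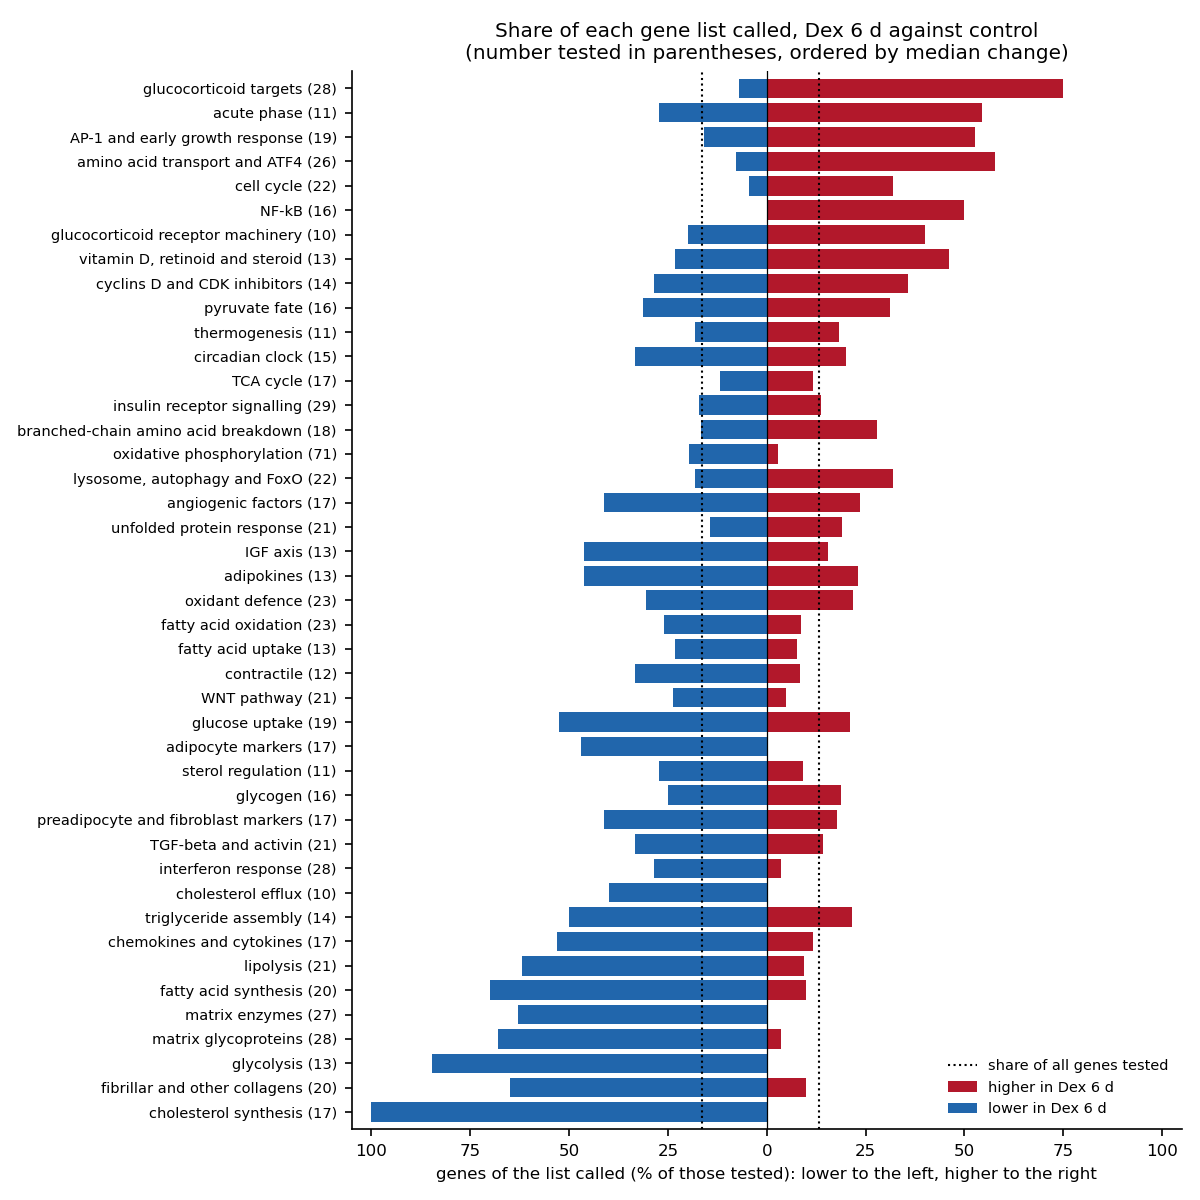
Share of the tested genes of each list that rose (red, to the right) or fell (blue, to the left) in Dex 6 d cells against control, in percent, for lists of at least 10 tested genes, ordered by median change. Dotted lines mark the shares of all genes tested, 13.3% higher and 16.3% lower. Glucocorticoid targets head the plot and cholesterol synthesis, with 17 of 17 lower, ends it.

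Matrix genes were lower. Of 20 collagen chains, 13 fell and 2 rose, or 15 and 1 without Dex_6D replicate 2, with a median of -0.84, and of 28 matrix glycoproteins 19 fell and 1 rose, with a median of -0.76. Col1a1, a chain of type I collagen, was at 7.30, 8.22 and 8.09 in Dex 6 d cells, against 10.13, 10.15 and 10.67 in control cells, a change of -2.44 ± 0.22 (adjusted p = 1.26e-06). Col5a2 changed by -1.73 ± 0.10 and Col3a1 by -1.32 ± 0.07 (adjusted p = 1.04e-08 and 5.83e-09). The chains that rose were Col18a1, the source of endostatin, by 0.80 ± 0.11, and Col6a3 by 0.29 ± 0.10. Dcn, decorin, was at 10.38, 10.23 and 11.32 in Dex 6 d cells, against 12.70, 12.80 and 12.82 in control cells, a change of -2.13 ± 0.22 (adjusted p = 4.02e-06). Fmod, fibromodulin, of the same proteoglycan family, changed by -2.54 ± 0.32, and Thbs1, thrombospondin 1, an activator of TGF-beta, by -2.17 ± 0.34 (adjusted p = 3.27e-05 and 0.000245). The glycoprotein that rose was Omd, osteomodulin, by 1.13 ± 0.11. Of 27 matrix enzymes and inhibitors, 17 fell and 0 rose, with a median of -0.61. They included the collagen hydroxylases P4ha1 (-2.29 ± 0.14) and Plod2 (-2.33 ± 0.14), the inhibitor Timp3 (-2.55 ± 0.18, a limit) and the collagenase Mmp13. Mmp13 was at 3.76, 3.92 and 4.34 in Dex 6 d cells, against 5.01, 5.94 and 8.67 in control cells, so its control arrays spread widely, with a change of -2.54 ± 0.78 (adjusted p = 0.0243), a limit. Without Dex_6D replicate 2 the change was as large, -2.49, but not called (adjusted p = 0.0631). When all 21 arrays were fitted, 10 of the 27 fell.

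TGF-beta and activin genes moved both ways, with 3 of 21 higher and 7 lower, beside 13.3% and 16.3% of all genes tested. Besides Inhbb, the falls included Tgfb2, a ligand, with -1.38 ± 0.18, Fstl1, a follistatin-like protein, with -1.11 ± 0.18, and Tgfbr1, the signalling receptor, with -1.02 ± 0.08. Tgfbr2, the ligand-binding receptor, was at 11.24, 11.45 and 10.95 in Dex 6 d cells, against 9.74, 9.77 and 10.24 in control cells, and rose by 1.30 ± 0.15 (adjusted p = 1.39e-05). Of 13 genes of the IGF axis, 2 rose and 6 fell. Igf1, a growth factor secreted by fat cells, was at 9.85, 9.80 and 10.16 in Dex 6 d cells, against 11.62, 11.70 and 11.21 in control cells, a change of -1.57 ± 0.16 (adjusted p = 3.26e-06), and Igfbp3, which carries it, rose by 1.22 ± 0.14 (adjusted p = 1.42e-05). Of 21 WNT genes, 1 rose and 5 fell, beside the same shares of all genes. Lef1, a nuclear partner of beta-catenin, rose by 2.03 ± 0.22 (adjusted p = 8e-06), and Wnt5a, a ligand, changed by -1.66 ± 0.12 (adjusted p = 1.87e-07). Of 17 angiogenic factors, 4 rose and 7 fell, or 2 and 6 without Dex_6D replicate 2. Angpt4 (-2.27 ± 0.26, a limit) and the fibroblast growth factors Fgf7 (-1.59 ± 0.18) and Fgf1 (-1.43 ± 0.14) fell, while Vegfc, a lymphatic growth factor, rose by 0.99 ± 0.13. Of 12 contractile genes, 1 rose, the matricellular Ccn1, by 2.11 ± 0.12, and 4 fell, among them the transcription factor Snai2 (-1.32 ± 0.13). The fit of all 21 arrays called 1 higher and 5 lower in the TGF-beta list, 1 and 3 in the WNT list, 1 and 5 in the angiogenic list and 1 and 2 in the contractile list.

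Of 13 adipokines, 3 rose and 6 fell. Agt, angiotensinogen, was at 14.0, 13.84 and 14.02 in Dex 6 d cells, against 12.44, 12.38 and 12.29 in control cells, a change of 1.58 ± 0.08 (adjusted p = 2.51e-09). Nampt, an enzyme of NAD synthesis that is also secreted, rose by 1.26 ± 0.09 (adjusted p = 1.17e-07), and Nrg4, a growth factor secreted by fat, changed by -1.69 ± 0.12 (adjusted p = 1.17e-07). Retn, resistin, changed by -0.08 ± 0.12 and was not called (adjusted p = 0.644). Fitted with all 21 arrays, 1 adipokine rose and 3 fell.

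Acute phase genes, which liver and fat secrete in inflammation and under glucocorticoids, were mostly higher: 6 of 11 rose and 3 fell, with a median of 0.73. Hp, haptoglobin, which binds free haemoglobin, was at 13.31, 13.34 and 13.41 in Dex 6 d cells, against 10.77, 10.91 and 10.97 in control cells, a change of 2.47 ± 0.07 (adjusted p = 6.25e-12). Cp, ceruloplasmin, which carries copper, changed by 1.83 ± 0.08 (adjusted p = 7.24e-10). Itih4, a plasma protease-inhibitor heavy chain, was at 11.25, 11.58 and 10.56 in Dex 6 d cells, against 8.03, 8.38 and 8.25 in control cells, a change of 2.91 ± 0.22 (adjusted p = 1.97e-07). Lcn2, lipocalin 2, which binds bacterial siderophores, was at 7.72, 6.62 and 7.87 in Dex 6 d cells, against 5.35, 5.33 and 5.41 in control cells, with Dex_6D replicate 2 the lowest of the treated arrays and a change of 2.04 ± 0.26 (adjusted p = 3.47e-05). Saa3, a serum amyloid, changed by 0.73 ± 0.24 (adjusted p = 0.036). The 3 that fell were Orm1, Orm2 and Steap4 (-1.19 ± 0.15), while Orm3 rose. These 3 Orm genes are near-identical paralogues whose probe sets may share signal. With all 21 arrays in the fit, 3 of the 11 rose and 0 fell.

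Of 17 chemokines and cytokines, 9 fell and 2 rose, with a median of -0.36. Besides Ccl11 and Cxcl5, Cxcl12, the ligand of CXCR4, was at 12.13, 11.94 and 12.32 in Dex 6 d cells, against 13.20, 13.21 and 13.53 in control cells, a change of -1.18 ± 0.11 (adjusted p = 1.54e-06). Ccl9 rose by 1.31 ± 0.15 and Cxcl13 by 1.18 ± 0.12, the second a limit, and Ccl2 was not called (adjusted p = 0.119). Of 7 complement genes, 4 fell and 1 rose. Cfb, factor B, changed by -1.63 ± 0.22 and C1s1, a protease of the classical pathway, by -1.70 ± 0.19 (adjusted p = 7.67e-05 and 8.48e-06), and the one that rose was Masp1 (0.46 ± 0.14), which was not called without Dex_6D replicate 2. Of 28 interferon response genes, 8 fell and 1 rose, with a median of -0.28. Ifit3, a partner of the antiviral RNA sensor IFIT1, was at 6.56, 7.37 and 7.04 in Dex 6 d cells, against 9.64, 9.77 and 9.08 in control cells, a change of -2.51 ± 0.24 (adjusted p = 2.44e-06), and Ifit1 changed by -1.39 ± 0.32 (adjusted p = 0.00415). Usp18, a protease that removes ISG15, changed by -0.71 ± 0.23 (adjusted p = 0.0306), and without Dex_6D replicate 2 by -0.72, which was not called (adjusted p = 0.0605). The fit of all 21 arrays called 2 chemokines and cytokines higher and 5 lower, and 0 interferon genes higher and 2 lower.

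NF-kB pathway genes went the other way, with 8 of 16 higher and 0 lower, and a median of 0.32. Nfkbia, the inhibitor that holds NF-kB in the cytoplasm and a known glucocorticoid target, was at 13.03, 13.12 and 12.99 in Dex 6 d cells, against 11.93, 11.91 and 11.49 in control cells, a change of 1.27 ± 0.10 (adjusted p = 3.28e-07). Birc2, a ubiquitin ligase of TNF receptor complexes, was at 10.45, 10.60 and 10.38 in Dex 6 d cells, against 8.92, 9.0 and 9.18 in control cells, a change of 1.45 ± 0.10 (adjusted p = 6.82e-08). Vcam1, an adhesion molecule, changed by 0.75 ± 0.11 (adjusted p = 0.000164), and Tnfrsf1b, a TNF receptor, by 0.98 ± 0.13 (adjusted p = 4.79e-05), with another probe set at -0.27. The subunit genes Rela, Nfkb2 and Relb were not called. In the fit of all 21 arrays, 3 of the 16 rose.

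Of 71 oxidative phosphorylation genes, 2 rose and 14 fell, beside 13.3% and 16.3% of all genes tested, with a median of -0.03. Without Dex_6D replicate 2, 5 rose. Apart from Cox7a1, the largest falls in that list were -0.51 ± 0.09 for Ndufs5 and -0.48 ± 0.09 for Ndufa3, both of complex I (adjusted p = 0.00059 and 0.00075). Of 17 genes of the TCA cycle, 2 rose and 2 fell, shares near those of all genes, each by less than 0.25 on the log2 scale. By limma, 0 rose and 0 fell either with all 21 arrays or with only the 2 groups in the fit. Of 23 fatty acid oxidation genes, 2 rose and 6 fell, beside the same shares of all genes. Acads, the short-chain acyl-CoA dehydrogenase, changed by -0.86 ± 0.10 (adjusted p = 1.53e-05), and Acadm, the medium-chain one, by 0.37 ± 0.05 (adjusted p = 4.14e-05). Of 11 thermogenic genes, 2 rose and 2 fell, again near the shares of all genes. Those that rose were Ppargc1b, a mitochondrial coactivator (0.87 ± 0.18), and Kcnk3, a potassium channel (0.75 ± 0.15, with another probe set at -0.07). Those that fell were Cox7a1 and Cox8b (-0.87 ± 0.07). Of 18 genes of branched-chain amino acid breakdown, 5 rose and 3 fell, from 0.99 ± 0.26 for Bcat2, the mitochondrial aminotransferase, to -0.72 ± 0.07 for Mccc1, a leucine pathway carboxylase. Fitted with all 21 arrays, 0 oxidative phosphorylation genes rose and 2 fell, and 0 rose and 1 fell in both the fatty acid oxidation and the branched-chain lists.

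Amino acid transport and ATF4 target genes were higher: 15 of 26 rose and 2 fell, with a median of 0.46, and 12 and 2 without Dex_6D replicate 2. Slc7a5, which imports large neutral amino acids, was at 9.78, 9.97 and 9.74 in Dex 6 d cells, against 7.09, 7.06 and 7.25 in control cells, a change of 2.70 ± 0.11 (adjusted p = 4.97e-10). Slc1a5, a glutamine transporter, was at 11.96, 11.64 and 12.17 in Dex 6 d cells, against 10.23, 10.31 and 10.09 in control cells, a change of 1.71 ± 0.16 (adjusted p = 1.37e-06). Slc1a3, a glutamate transporter, changed by 1.43 ± 0.11 (adjusted p = 2.01e-07). The 2 that fell were Atf4 itself (-0.36 ± 0.13, with another probe set at 0.05) and its target Ddit3, a stress factor (-0.63 ± 0.14). In the fit of all 21 arrays 6 rose and 0 fell. Unfolded protein response genes rose and fell at shares near those of all genes, with 4 of 21 higher and 3 lower. Without Dex_6D replicate 2, the counts were 2 and 3. Ern1, a sensor of unfolded protein, changed by 0.79 ± 0.14 and Xbp1, whose RNA it cleaves, by 0.58 ± 0.08 (adjusted p = 0.000604 and 9.23e-05), with lowest bright probe sets at 0.08 and 0.19. Hspa5, the main chaperone of the endoplasmic reticulum, was not called, and the fit of all 21 arrays called 1 gene of the list higher and 0 lower.

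Of 22 cell cycle genes, 7 rose and 1 fell, with a median of 0.42, and without Dex_6D replicate 2, 7 rose and 3 fell with a median of 0.17. Top2a, a topoisomerase of dividing cells, was at 6.88, 8.0 and 7.09 in Dex 6 d cells, against 5.77, 6.36 and 6.13 in control cells, with Dex_6D replicate 2 the highest array and a change of 1.23 ± 0.23 (adjusted p = 0.000835). Its other bright probe set changed by 0.05. Mcm5, a subunit of the replication helicase, was at 5.75, 7.21 and 5.97 in Dex 6 d cells, against 4.80, 5.08 and 5.59 in control cells, again with replicate 2 highest and a change of 1.15 ± 0.31 (adjusted p = 0.0109), a limit. Without that array, the change was 0.89 for Top2a (adjusted p = 0.00071) and 0.71 for Mcm5 (adjusted p = 0.0303). Of 14 cyclin D and inhibitor genes, 5 rose and 4 fell. Cdkn1a, the inhibitor p21, changed by 1.54 ± 0.14, Cdkn1b, the inhibitor p27, by 0.96 ± 0.12, and Myc by 1.70 ± 0.15 (adjusted p = 1.52e-06, 2.46e-05 and 8.87e-07). When all 21 arrays were fitted, 3 genes rose and 0 fell in each of these lists.

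Of 19 AP-1 and early growth response genes, 10 rose and 3 fell, with a median of 0.54. Egr1, an immediate early factor, was at 10.29, 10.64 and 9.98 in Dex 6 d cells, against 9.09, 9.23 and 8.86 in control cells, a change of 1.24 ± 0.14 (adjusted p = 1.37e-05), and Klf6 changed by 1.19 ± 0.23 (adjusted p = 0.00131). Fos and Jun were not called. Metallothionein and zinc genes showed 3 of 8 higher and 0 lower, or 3 and 2 without Dex_6D replicate 2. Slc39a14, a zinc importer, was at 8.99, 8.89 and 9.11 in Dex 6 d cells, against 6.09, 6.23 and 6.15 in control cells, a change of 2.84 ± 0.10 (adjusted p = 5.96e-11), with 4 bright probe sets between 0.54 and 2.84, and Mt1 changed by 0.89 ± 0.05 (adjusted p = 1.43e-08). Of 22 lysosome, autophagy and FoxO genes, 7 rose and 4 fell. Foxo3, a factor that AKT excludes from the nucleus, changed by 1.34 ± 0.11, with probe sets between 0.14 and 1.34, and Foxo1, with probe sets between 0.13 and 0.79, by 0.79 ± 0.10 (adjusted p = 7.32e-07 and 4.2e-05). The fit of all 21 arrays called 6 higher and 0 lower in the AP-1 list, and 3 and 0 in the lysosome list.

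Of 13 vitamin D, retinoid and steroid genes, 6 rose and 3 fell. Vdr, the vitamin D receptor, was at 7.84, 8.32 and 8.07 in Dex 6 d cells, against 5.95, 6.23 and 6.37 in control cells, a change of 1.89 ± 0.14 (adjusted p = 2.28e-07). Its partner Rxra, a retinoid X receptor, rose by 0.61 ± 0.08. Of 15 clock genes, 3 rose and 5 fell, beside 13.3% and 16.3% of all genes tested. Per1 was at 9.10, 9.25 and 9.37 in Dex 6 d cells, against 7.49, 7.68 and 7.55 in control cells, a change of 1.66 ± 0.11 (adjusted p = 5.87e-08), whereas Bhlhe40, a clock repressor, changed by -1.77 ± 0.16, Per3 by -1.12 ± 0.13 (its bright probe sets reached -0.24) and Dbp, a clock output factor, by -0.79 ± 0.11. Of 23 oxidant defence genes, 5 rose and 7 fell. Hmox1, haem oxygenase, changed by -1.03 ± 0.13, and Sod3, the extracellular superoxide dismutase, by -1.43 ± 0.24 (adjusted p = 3.24e-05 and 0.000395), while Gclc, of glutathione synthesis, rose by 0.72 ± 0.10. The fit of all 21 arrays called 5 higher and 1 lower in the vitamin D list, 1 and 3 among clock genes and 1 and 0 among oxidant defence genes.

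The Dex 24 h arrays set the 6 d levels beside an earlier time. Dex 6 d differed from Dex 24 h in 888 genes (7.51%), of which 238 were higher (2.01%) and 650 lower (5.50%) at 6 d. Of the 3495 genes called against control, 729 also differed from Dex 24 h: 500 were lower and 188 higher in both comparisons, 33 were higher than control but lower than at 24 h, and 8 the reverse. Both comparisons use the same Dex 6 d arrays. The other 2766 were not called against Dex 24 h, which does not show that they had stopped changing. With all 21 arrays in the fit 85 genes differed, and without Dex_6D replicate 2, 836 did. The count was 532 without Dex_6D replicate 1, 447 without Dex_24H replicate 1 and 466 without Dex_24H replicate 2.

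All 17 cholesterol synthesis genes were lower at 6 d than at 24 h, with a median of -1.18 between the times, beside a median of -1.76 against control at 6 d. The median at 24 h against the same control arrays was -0.60. Tm7sf2 was at 8.15, 8.64 and 7.79 at 6 d, against 10.32, 10.37 and 10.34 at 24 h, a difference of -2.15 ± 0.17 (adjusted p = 6.14e-06). Mvd differed by -1.56 ± 0.11 (adjusted p = 1.98e-06). Of the 20 fatty acid synthesis genes, 12 were lower and 1 higher at 6 d than at 24 h. Of the 20 collagens 9 were lower and 0 higher, and of the 28 matrix glycoproteins 12 and 0. Slc2a4 was at 10.11, 9.93 and 10.21 at 6 d, against 10.81, 10.83 and 10.75 at 24 h, the 24 h arrays lying level with the control arrays, a difference of -0.71 ± 0.10 (adjusted p = 0.000613). Agpat2 differed by -1.12 ± 0.12 (adjusted p = 6.25e-05), beside a 24 h minus control value of -0.04. Irs1, in contrast, differed by 0.04 ± 0.11 (adjusted p = 0.905) beside a 24 h minus control value of -0.88.

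**Figure D5:**
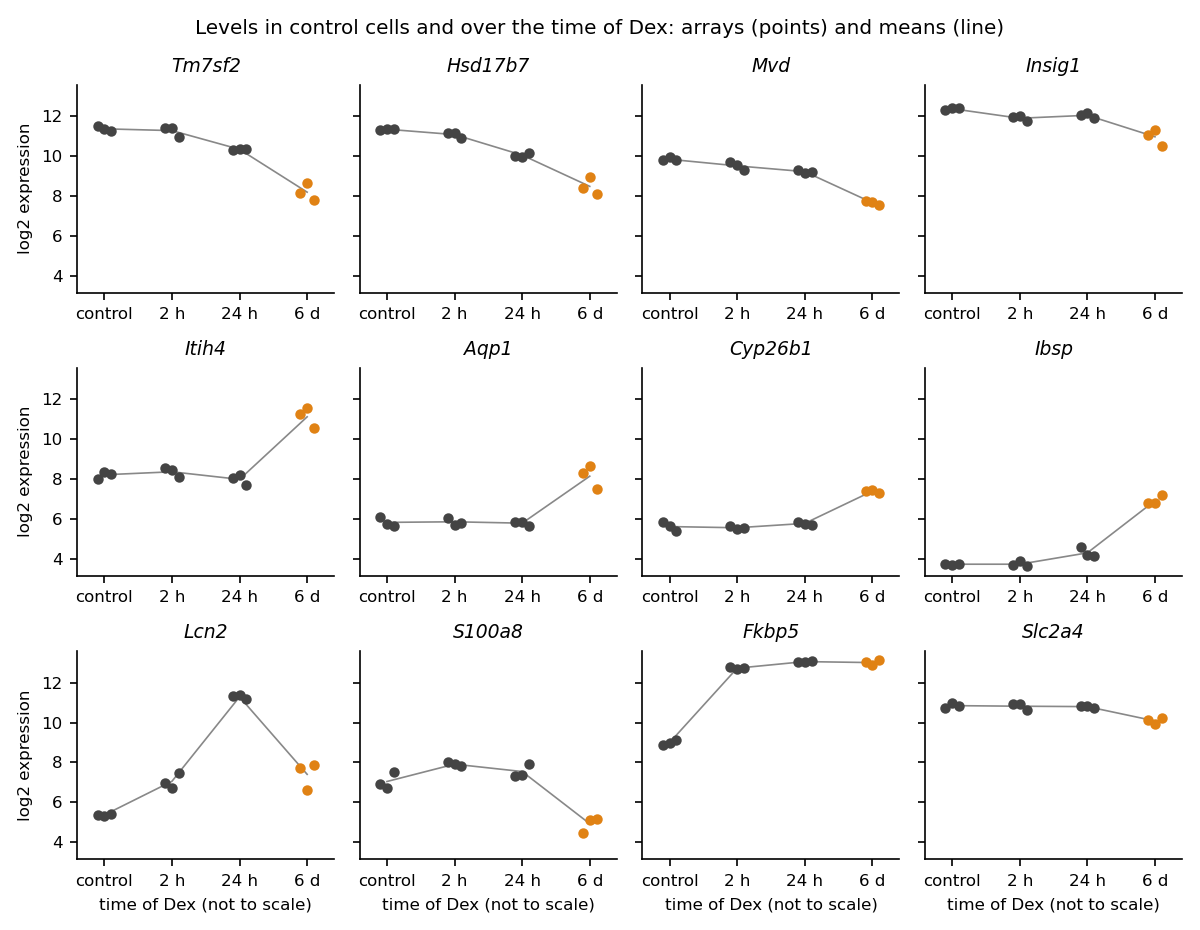
Log2 expression on each array (points) and group means (line) in control cells and after 2 h, 24 h and 6 d of Dex for 12 genes, with the Dex 6 d arrays in orange and time not to scale. The sterol genes of the top row reach their lowest level at 6 d, Itih4, Aqp1, Cyp26b1 and Ibsp are high only at 6 d among these groups, and Lcn2 is highest at 24 h.

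Several genes were high at 6 d and near their control level at 24 h. Itih4 was at 11.25, 11.58 and 10.56 at 6 d, against 8.04, 8.23 and 7.69 at 24 h, a difference of 3.14 ± 0.22 (adjusted p = 1.79e-06). Aqp1, a water channel, was at 8.29, 8.66 and 7.49 at 6 d, against 5.85, 5.84 and 5.66 at 24 h, a difference of 2.36 ± 0.23 (adjusted p = 2.68e-05). Cyp26b1, which degrades retinoic acid, differed by 1.62 ± 0.12 (adjusted p = 3.16e-06), beside a 24 h minus control value of 0.16. The largest differences also included Ang4 (2.94 ± 0.23), Ang3 (2.82 ± 0.23), Ibsp, a bone matrix sialoprotein (2.62 ± 0.15), Synm, an intermediate filament protein (1.87 ± 0.18), and Gsta3, a glutathione transferase (1.75 ± 0.17). Their 24 h minus control values were 0.67, 3.91, 0.57, 0.82 and 0.69, so Ang3 was already well above control at 24 h. The differences of Ang4, Ibsp, Synm and Gsta3 are lower limits, since their 24 h means lay below 5.33. Lcn2 showed the opposite order: it was at 7.72, 6.62 and 7.87 at 6 d, against 11.32, 11.38 and 11.17 at 24 h, a difference of -3.89 ± 0.26 (adjusted p = 1.36e-06). S100a8, a calcium-binding protein of myeloid cells, was at 4.45, 5.12 and 5.18 at 6 d, against 7.34, 7.38 and 7.90 at 24 h, and its 6 d arrays lay below the control arrays. Its difference between the times was -2.62 ± 0.22 (adjusted p = 1.07e-05), a limit in size, since its 6 d mean lay below 5.33. That of Wfdc21, a secreted antiproteinase-family protein, was -2.57 ± 0.14 (adjusted p = 3.04e-07). Fkbp5 was not called between the times, with -0.05 ± 0.08 (adjusted p = 0.807).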

How the data were processed

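The values are log2 expression values of Affymetrix mouse arrays, 1 column per array, which the authors deposited after RMA (background correction, quantile normalisation and probe set summary), per the submitters' processing notes, which name no version. Groups were taken from the labels. Of 45101 probe sets, 34958 were annotated to 1 gene, 932 to several and 9211 to none in the platform annotation. Symbols were updated through RefSeq for 34754 and kept for 204, giving 18194 genes, each represented by its probe set with the highest mean level. The 6370 genes with fewer than 3 of 12 arrays above 5.33 were not tested.

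The 4 Dex and control groups were fitted together with limma 3.58.1 (lmFit and eBayes with an intensity trend) in R 4.3.3, giving 8 residual degrees of freedom plus 5.82 from moderation. The script was tested on simulated data. The fit of 12 arrays, without the other agents, was chosen knowing that TNF_6D replicate 2 differs from its group. An exact permutation test of 3 against 3 arrays cannot give a p below 0.1.

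Named genes were the 15 largest rises and falls without overlap, up to 4 called members of each list with the largest change, a fixed panel, and the 8 largest rises and falls against Dex 24 h. Other list members given as examples were picked after their values were seen. The members, lists and tests were chosen with earlier results of these data known. The alternatives were no filter, a filter on the mean, the mean of probe sets, other centring, no trend, robust moderation, array weights, the 3′ to 5′ difference as a covariate, a replicate block, other sets of arrays, and each replicate left out. Same-numbered Dex 6 d and control arrays deviated with correlations of 0.397, -0.268 and -0.256, so no general pairing by replicate number was seen. Columns are 1 per array and no other columns were used. Depth does not apply to arrays, whose number limits the precision.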

Additional observations from a re-analysis of the deposited data

Results flagged for a closer look

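A closer look was given to the 49 named genes whose change from control differed between Dex 6 d and Dex 24 h by limma, tested as the direct difference of the times and at least 2-fold in size. They come from 106 of 223 named genes called between the times, beside 7.51% of all genes, and since the named genes were partly chosen for this difference nothing is read from their count. Of the 49, 34 were lower and 15 higher at 6 d, and the highest adjusted p among them was 0.0312. The values below are log2 differences, Dex 6 d minus Dex 24 h, from 3 arrays a group. Those of S100a8, Inhbb, Ccl11, Angpt4, Apoe, Ang4, Ibsp, Synm and Gsta3 are limits in size, since a group mean lay below 5.33.

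Lcn2 (-3.89), S100a8 (-2.62) and Wfdc21 (-2.57) encode secreted or myeloid-type defence proteins, and their mean levels at 24 h were above control. Matrix and growth factor genes were Lum (-2.63), Fmod (-1.86), Dpt, dermatopontin (-1.70), Inhbb (-1.57), Dcn (-1.33), Col1a1 (-1.31), Plod2 (-1.15), Tgfbi (-1.08), P4ha1 (-1.01), Angpt4 (-1.01) and Col5a2 (-1.0). Sterol genes were Tm7sf2 (-2.15), Hsd17b7 (-1.57), Mvd (-1.56), Sqle (-1.23), Insig1 (-1.08) and Stard4 (-1.02). Other lipid genes were Ffar4 (-1.85), Pck1 (-1.71), Apoe (-1.26), Fads2 (-1.25), Agpat2 (-1.12), Acss2 (-1.09), Pltp (-1.06) and Acsl3 (-1.01). The remaining genes were Car3 (-2.69), Cox7a1 (-1.55), Nrg4 (-1.30), Ccl11 (-1.22), Hsd11b1 (-1.14) and Ddit4 (-1.11).

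Among the higher ones were the secreted proteins Itih4 (3.14), Ang4 (2.94), Ang3 (2.82), Ibsp (2.62) and Ccl6 (1.12). Aqp1 (2.36), Synm (1.87), Gsta3 (1.75) and Cyp26b1 (1.62) had control levels near the background or within 0.5 of it on the log2 scale. The others were Egr1 (1.44), Retreg1 (1.29), Ifi207 (1.17), Cyp2e1 (1.12), Vdr (1.11) and Depp1 (1.10).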

How the results depend on the processing

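The count against control and the count against Dex 24 h stayed within 1.5 times their values of 3495 and 888 with or without a filter, with the mean of probe sets, with cyclic loess or centring on the median, with robust or untrended moderation and with the 3′ to 5′ covariate, with 3254 to 4025 and 719 to 1133 genes. With all 21 arrays, 1007 and 85 genes were called, and with all arrays but TNF_6D replicate 2, 2902 and 551, so that array's spread enters the 21-array counts. Array weights, which gave Dex_6D replicate 2 a weight of 0.182 and CTL replicate 3 one of 0.197, called 5723 and 4432, and the cause was not tested. Counting only changes of at least 2-fold left 630 and 112. Leaving out each replicate gave 2810 to 3893 genes against control. Against Dex 24 h it gave 447 to 889, with 447 without Dex_24H replicate 1, 466 without Dex_24H replicate 2 and 532 without Dex_6D replicate 1. With the replicate block, 3695 and 1059 genes were called, and in fits of only the groups compared the block gave 1946 and 621, against 2413 and 618 with no block. The correlations of same-numbered Dex 6 d and Dex 24 h arrays were 0.16, -0.063 and 0.031, so no general pairing by replicate number was seen. Some named genes did share a replicate pattern. Fmod, Lum, Col11a1, Mmp13, Dpt, C1ra, C1s1, Cfb and Car3, among others, were highest on replicate 3 in each of the 4 groups of the fit. Most of these are matrix, fibroblast or complement genes, though Col1a1 and Col5a2 were not highest on replicate 3 in the Dex 6 d group. The source of that pattern was not tested. Of the 223 named genes, 57 lost or missed the call with all 21 arrays. Without Dex_6D replicate 2, 4 did (Atf6, Lipe, Mmp13 and Usp18). Among named genes called in the main fit or in the alternative, 0 changed direction. The direction of changes called in neither fit was not counted. Genes near the array background have only a limit to their change.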

Other observations

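A few gene groups picked after their values were seen have not been described. Of the genes of the pyruvate dehydrogenase complex and its phosphatases, 3 rose by limma, with 0.93 ± 0.11 for Pdp1, which switches the complex on, 0.40 ± 0.08 for Dlat and 0.38 ± 0.09 for Pdha1, and Pdhb, Pdhx, Dld and Pdp2 were not called, with -0.04, -0.12, 0.19 and 0.20, while Mpc1, a subunit of the carrier that brings pyruvate into mitochondria, changed by -0.43 ± 0.12 (adjusted p = 1.17e-05, 0.00244, 0.0043 and 0.0137). The caveolins, which shape the surface pits of fat cells, were lower, with -0.44 ± 0.08 for Cav2 and -0.17 ± 0.06 for Cav1 (adjusted p = 0.00102 and 0.0343), whereas Cavin1, their coat protein, changed by 0.22 ± 0.18 and was not called (adjusted p = 0.402).

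The peroxidases of the endoplasmic reticulum were lower in Dex 6 d cells, with changes of -0.99 ± 0.13 for Gpx8, -0.87 ± 0.10 for Gpx7 and -0.64 ± 0.08 for Prdx4 (adjusted p = 6.7e-05, 1.73e-05 and 3.97e-05 by limma). Among tested peroxidases of other compartments, the mitochondrial Prdx3 (0.08 ± 0.09), the cytosolic Prdx2 (-0.09 ± 0.07) and catalase (-0.13 ± 0.11) were not called. Gpx1 rose by 0.42 ± 0.04 (adjusted p = 5.06e-06). Prdx1, Prdx5 and Prdx6 had no probe set annotated to them alone, and Gpx3 was too dim to test. The compartments can therefore not be compared as classes.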
